A study of Mus musculus with 2 samples.

Results

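The 9 genes described here are the core of the Sonic hedgehog pathway: the ligand Shh, the receptor Ptch1, the co-receptor Boc, the ligand-binding inhibitor Hhip, the signal transducer Smo, the transcription factors Gli1, Gli2 and Gli3, and the Gli inhibitor Sufu. They were chosen by symbol, and all 9 were found among the 43346 genes of the deposited tables. Poly(A)+ RNA longer than 200 nucleotides, depleted of ribosomal RNA and carrying spike-in RNAs, was sequenced in stranded libraries of paired reads. The tissue was central nervous system from embryos of the inbred mouse strain C57BL/6J at embryonic day 14, with no mutation or treatment named. There was 1 group of 2 biological replicates, each pooled from littermates of both sexes, and the labels give both the same donor. The design holds no contrast, so the values below are levels, ratios within a library and differences between the replicates, and no p-value was computed.

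In background, secreted Shh binds Ptch1 and thereby releases Smo, which moves into the primary cilium and turns the Gli proteins from repressors into activators. Sufu holds the Gli proteins in check, Boc presents the ligand, and Hhip binds and removes it. Ptch1, Hhip and Gli1 are themselves transcribed in response to the signal and are widely used as readouts of it. In the developing nervous system Shh from the notochord and floor plate sets ventral cell fates, and later drives growth of precursors in the cerebellum.

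The replicates held 102727538 and 138440954 expected counts in all, of which 41581 and 45889 were of the 9 genes. Markers of nervous tissue were abundant, with the neuronal tubulin Tubb3 at 1820 and 2133 TPM (a length-scaled share of all transcripts) and the progenitor gene Vim at 913 and 961 TPM in replicates 1 and 2. The replicates differed in what else they held. All 6 skeletal muscle markers, all 6 skin and epithelial markers, 6 of 7 cartilage markers and 7 of 8 mesenchyme and meninges markers were at least 1.5-fold higher in replicate 1. All 4 telencephalon markers and all 3 spinal cord Hox genes were at least 1.5-fold higher in replicate 2, as for Hoxb9 with 0.36 TPM in replicate 1 and 13.1 TPM in replicate 2. In these bulk samples fewer cells of a type and less RNA per cell cannot be told apart.

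Boc and Sufu contain an exon whose start can shift by a single codon, and Ptch1 has alternative first exons; the sequences below are those on which these findings turn. Each comes from GENCODE M21 transcripts on mm10, or from the RefSeq promoter table on GRCm38.p6 for the stretches named as upstream. For Sufu and Boc the line spans the end of one coding exon and the start of the next, 20 bases of each, and capitals mark the 3 bases that are present only when the upstream acceptor is used. The Sufu exon lies on the plus strand at chr19:46453159-46453315 with the codon (157 bases) and starts 3 bases later without it (154 bases), and the Boc exon lies on the minus strand at chr16:44487350-44487429 (80 bases). For Ptch1-201 the line gives the last 30 bases of the coding part of its first exon in lower case, then in capitals the first 30 bases of the second exon, which Ptch1-202 also uses (minus strand, first exon at chr13:63565362-63565735). The upstream stretches are the 250 bases before the annotated start, shown for Ptch1 because its first exons are compared below and for Hhip because it is a signal-responsive gene that differed between the replicates. Their capitals mark a stretch with the fewest differences from the Gli consensus GACCACCCA on either strand (chr13:63565736-63565985 and chr8:80058009-80058258, both minus strand). In Ptch1 other stretches tie with the marked one.
Sufu-202: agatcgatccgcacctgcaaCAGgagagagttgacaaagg
Sufu-201: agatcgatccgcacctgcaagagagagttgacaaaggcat
Boc-201: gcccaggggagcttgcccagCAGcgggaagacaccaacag
Ptch1-201: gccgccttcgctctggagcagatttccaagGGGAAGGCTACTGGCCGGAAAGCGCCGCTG
Ptch1 upstream: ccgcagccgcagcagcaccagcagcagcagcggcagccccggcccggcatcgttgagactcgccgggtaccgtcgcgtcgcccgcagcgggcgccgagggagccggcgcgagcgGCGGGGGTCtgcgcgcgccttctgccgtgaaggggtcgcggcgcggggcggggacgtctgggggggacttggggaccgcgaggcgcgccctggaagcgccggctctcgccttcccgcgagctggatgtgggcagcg
Hhip upstream: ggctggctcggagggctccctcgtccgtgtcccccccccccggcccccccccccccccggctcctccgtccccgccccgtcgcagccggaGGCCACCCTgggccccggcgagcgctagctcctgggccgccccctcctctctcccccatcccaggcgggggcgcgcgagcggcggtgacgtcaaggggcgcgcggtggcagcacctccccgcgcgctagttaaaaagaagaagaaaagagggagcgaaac

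All 9 genes averaged at least 1 TPM, and the components that receive and relay the signal stood well above the ligand. Smo, the 7-pass membrane protein that carries the signal inward (ENSMUSG00000001761, chromosome 6, 29735503 to 29761365), was the highest in TPM, with 33.0 TPM in replicate 1 and 26.2 TPM in replicate 2 (mean 29.6 ± 4.82, SD, n = 2). In the deposited mm9 RPKM, which are also scaled by length, Ptch1 was the highest, with a mean over both fields of 4.42 against 3.75 for Smo, and in TMM-scaled CPM Ptch1 led in both replicates. Shh, the ligand (ENSMUSG00000002633, chromosome 5, 28456815 to 28467256), had 4.0 and 4.51 TPM (4.25 ± 0.361), the lowest level but for Hhip. The median over 21474 protein-coding genes was 6.61 TPM, so that Smo stood above 74.6% of them and Shh above 45.4%.

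Among the proteins that bind the ligand, Boc, a membrane co-receptor (ENSMUSG00000022687, chromosome 16, 44485049 to 44558897), had 25.1 and 19.6 TPM (22.4 ± 3.87). Ptch1, the receptor that restrains Smo (ENSMUSG00000021466, chromosome 13, 63508328 to 63573598), had 21.3 and 18.2 TPM (19.8 ± 2.18). The ranges of Boc and Ptch1 overlapped, so their order is not resolved. Hhip, which sequesters the ligand (ENSMUSG00000064325, chromosome 8, 79965851 to 80058006), had 1.6 and 0.99 TPM (1.29 ± 0.431), from 295 and 173 counts. Hhip was the lowest member in both libraries, at 0.0750 times the level of Ptch1 in replicate 1 and 0.0543 times in replicate 2.

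Of the Gli factors, Gli1, the activator that is itself a target of the pathway (ENSMUSG00000025407, chromosome 10, 127329882 to 127341974), had 18.4 TPM in replicate 1 and 7.51 TPM in replicate 2 (12.97 ± 7.71). Gli3, which acts largely as the repressor (ENSMUSG00000021318, chromosome 13, 15463235 to 15730026), had 10.9 and 12.2 TPM (11.6 ± 0.898). Gli2, the main activator early in the response (ENSMUSG00000048402, chromosome 1, 118834132 to 119053619), had 8.85 and 7.07 TPM (7.96 ± 1.26). Gli3 exceeded Gli2 in both libraries, by 0.31 and 0.79 on the log2 scale of TPM. Gli1 over Gli3 turned round between the libraries, at 0.75 in replicate 1 and -0.70 in replicate 2 on the same scale. Gli1 thus made up 48.2% of the summed TPM of the 3 Gli genes in replicate 1 and 28.0% in replicate 2, and Gli3 28.6% and 45.6%.

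Sufu, which binds the Gli proteins in the cytoplasm (ENSMUSG00000025231, chromosome 19, 46396896 to 46488804), had 19.5 and 18.9 TPM (19.2 ± 0.389), which relative to its level was the smallest difference in TPM among the 9. Its level was 0.509 and 0.706 times the sum of the 3 Gli genes. Ptch1 was below Smo in both libraries, by 0.63 and 0.52 on the log2 scale of TPM, and Boc was above Ptch1 by 0.23 and 0.11. Both directions turned in other units: the mean of Ptch1 over Smo was 0.30 in CPM and 0.24 in mm9 RPKM, and that of Boc over Ptch1 was -0.47 and -0.72. By mean TPM the order was Smo, Boc, Ptch1, Sufu, Gli1, Gli3, Gli2, Shh, Hhip. The neighbours whose ranges overlapped were Boc and Ptch1, Ptch1 and Sufu, and Gli1 and Gli3, while the other 5 neighbouring pairs were apart. Within single libraries the order was that of the means in replicate 1, and in replicate 2 Sufu stood above Ptch1 and Gli3 above Gli1.

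**Figure D1:**
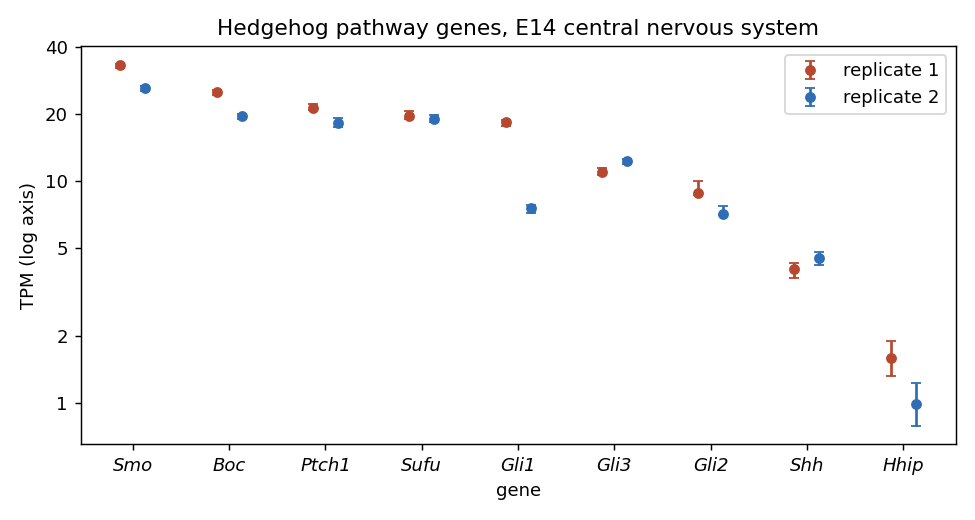
Level of the 9 pathway genes in TPM (vertical log axis) in replicate 1 and replicate 2, in order of mean TPM; bars are the bounds the authors' quantifier gave for each value, whose level is not stated. Gli1 stands at 18.4 TPM in replicate 1 and 7.51 TPM in replicate 2, while the other genes from Smo to Shh differ by less than 1.5-fold. The bars of Smo, Boc, Ptch1, Gli2 and Gli3 also do not overlap between the replicates. The share of all genes whose bars do not overlap was not computed, so this does not set these genes apart.

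Of the 9 genes, 2 differed by more than 1.5-fold between the replicates. Gli1 (4043 and 2198 counts) was 2.45-fold higher in replicate 1, with an exact 95% interval for counting error of 2.33 to 2.58. Hhip was 2.27-fold higher in replicate 1 (1.88 to 2.76). In TMM-scaled counts both also passed a 2-fold threshold. Hhip did not in counts scaled by the spike-in and control sequences (log2 ratio 0.97) or in TPM (0.64 with a pseudocount of 0.1), and its effective length was 2913 bases in replicate 1 and 2070 bases in replicate 2. No member was 1.5-fold higher in replicate 2. Over the 14340 genes that averaged 200 or more expected counts, 8.28% were called at least 1.5-fold higher in replicate 1 and 1.38% in replicate 2, and 3.97% and 0.286% at 2-fold. The share among the 9 members, 22.2%, rests on these 2 genes alone. Gli1 lay above 97.4% and Hhip above 96.9% of these genes in the size of the log2 ratio.

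The third gene that responds to the signal, Ptch1, differed much less, at 0.29 on the log2 scale (9069 and 9909 counts before scaling for depth). Boc (0.35), Smo (0.33) and Gli2 (0.25) were likewise higher in replicate 1 by less than 1.5-fold. Shh and Gli3 were lower in replicate 1, at -0.18 and -0.16. Sufu stood at 0.04, with an interval of -0.01 to 0.10, and at -0.17 when libraries were scaled by the spike-in and control sequences, which moved every log2 ratio by -0.21. That scaling left the direction of the other 8 members as it was. The median of the 9 log2 ratios was 0.29, against -0.02 over the 14340 genes.

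**Figure D2:**
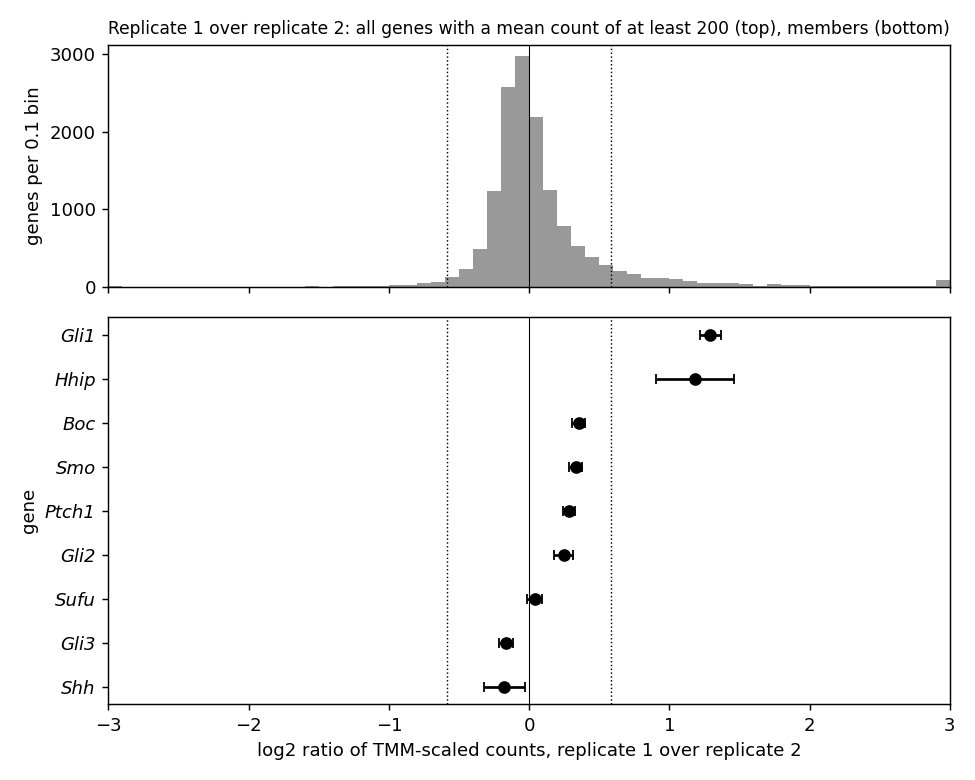
Log2 ratio of TMM-scaled counts, replicate 1 over replicate 2 (horizontal axis), as a histogram of the 14340 genes with a mean of 200 or more counts (top; the end bins hold all values beyond the axis) and for the 9 pathway genes with exact 95% intervals for counting error (bottom). Dotted lines mark 1.5-fold, and Gli1 (1.29) and Hhip (1.18) are the members that lie beyond it.

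Markers of tissues other than the nervous system moved in the same direction as Gli1 and Hhip. The summed level of the 7 cartilage markers was 703 TPM in replicate 1 and 123 TPM in replicate 2, that of the 6 skeletal muscle markers 567 and 10.8 TPM, that of the 6 skin and epithelial markers 129 and 14.2 TPM, and that of the 8 mesenchyme and meninges markers 1235 and 520 TPM. Cartilage collagen Col2a1 had 417 and 73.5 TPM, and Col10a1, a marker of the hypertrophic growth plate, 19.5 and 0.04 TPM. The 4 Schwann cell markers summed to 43.6 and 21.8 TPM, and 3 of them were at least 1.5-fold higher in replicate 1. Hedgehog signals also act in cartilage, skin and mesenchyme, and the part of these tissues in the ratios of Gli1 and Hhip was not tested.

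Regional markers of the nervous system also moved. The 4 telencephalon markers summed to 333 TPM in replicate 1 and 618 TPM in replicate 2, and the 3 spinal cord Hox genes to 0.72 and 23.1 TPM. The 6 neural progenitor markers were all lower in replicate 1, 3 of them by at least 1.5-fold (summed 1960 and 2233 TPM). The 5 neuron markers (2955 and 3359 TPM summed), the 4 midbrain and hindbrain markers (85.9 and 77.0 TPM) and, of the 3 cerebellar granule precursor markers, Zic1 and Barhl1 differed by less than 1.5-fold. Their part in the ratios of the pathway genes was not tested either.

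**Figure D3:**
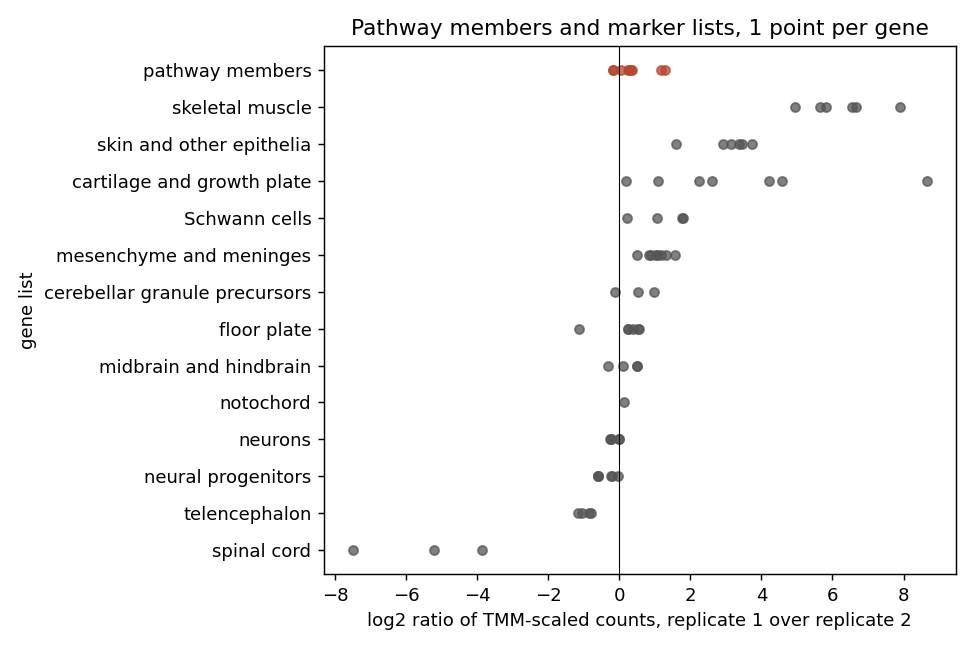
Log2 ratio of TMM-scaled counts, replicate 1 over replicate 2 (horizontal axis), with 1 point for each of the 9 pathway members (top row) and for each gene of 13 marker lists. Every muscle, skin, cartilage and mesenchyme marker lies right of 0, every telencephalon and spinal cord marker left of 0, and the pathway members lie between -0.18 and 1.29; Noto, at 0 counts in both libraries, is not drawn.

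The cells that make Shh were represented as well. Of the 6 floor plate markers, 5 averaged at least 1 TPM. Foxa2, the factor that switches on Shh there, had 5.53 and 3.90 TPM, and the guidance cue Ntn1 31.9 and 25.4 TPM. Nkx2-9 was listed at 7 and 8 counts. Of the 2 notochord markers, Noto had 0 counts in both libraries, while T was detected at 1.87 and 1.48 TPM.

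The wider pathway was expressed almost in full. With the 9 members, 42 of 43 listed genes averaged at least 1 TPM, against 65.2% of 21474 protein-coding genes, and the exception was Scube2. In single libraries 43 reached 1 TPM in replicate 1 and 39 in replicate 2, where Ihh, Dhh, Scube2 and Hhip fell below it. Of 8 genes for other ligands and for ligand release, the highest were the secreted factors Scube3 (18.6 ± 2.95 TPM) and Scube1 (14.6 ± 1.17 TPM), which carry the ligand away from the cell, and Disp1 (10.9 ± 1.51 TPM), the transporter that releases it. The other hedgehog ligands were low. Ihh, the ligand of the growth plate, had 2.84 TPM in replicate 1 and 0.51 TPM in replicate 2, and Dhh, which Schwann cells make, 1.69 and 0.80 TPM. Scube2 had 1.14 and 0.49 TPM. Ihh (log2 ratio 2.24), Scube2 (1.34) and Dhh (1.06) were also the only genes of the wider list that were at least 1.5-fold apart, all higher in replicate 1. These 3 of 34 genes (8.82%) are close to the background share of 8.28%. Dhh and Scube2 averaged under 200 counts and so lie outside the genes behind the background shares. Ihh is also among the cartilage markers above and Dhh among the Schwann cell markers, so the same values enter both lists.

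All 5 further receptors and co-receptors were detected. Gas1, a membrane-anchored co-receptor, had 38.4 ± 4.84 TPM, and Cdon, the paralogue of Boc, 28.3 ± 2.50 TPM. Both had higher mean TPM than Boc. The endocytic receptor Lrp2 had 1.72 ± 0.184 TPM.

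All 12 genes of transduction at the cilium were detected, with a median of 21.1 TPM. Grk2, a kinase that acts on Smo, had 91.2 ± 0.106 TPM, Kif3a, a motor subunit of transport within the cilium, 77.1 ± 3.20 TPM, and Iqce, which anchors the Evc complex, 37.1 ± 2.32 TPM. Kif7, the kinesin of the ciliary tip, was the lowest at 6.05 ± 0.113 TPM, below Evc2 (12.7 ± 2.50 TPM) and Efcab7 (13.4 ± 0.849 TPM), both of which act with Evc. All 9 kinases and turnover factors of Gli were detected at a median of 48.5 TPM. Csnk1a1 (163 ± 12.2 TPM) and the protein kinase A subunits Prkaca (103 ± 2.35 TPM) and Prkacb (77.6 ± 2.55 TPM), which phosphorylate Gli proteins, were the highest. Btrc, the F-box protein that recognises phosphorylated Gli (26.4 ± 0.0849 TPM), Dyrk2 (21.9 ± 1.6 TPM) and Ulk3 (13.1 ± 1.36 TPM) were the lowest. None of these 21 intracellular genes was 1.5-fold apart between the replicates, and the median log2 ratio was -0.02 for the cilium list and -0.06 for the kinases. Over the 14340 background genes 9.67% were as far apart, so with 21 genes this does not set the lists apart.

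Of 17 genes known as targets of the pathway, 16 averaged at least 1 TPM, and the replicates did not order them one way. Nkx6-1, a ventral patterning factor (5.41 and 3.12 TPM, log2 ratio 0.79), and Atoh1, the factor of cerebellar granule precursors (3.45 and 1.74 TPM, 0.98), were at least 1.5-fold higher in replicate 1. Nkx2-1, a factor of the ventral forebrain, was lower in replicate 1, at 20.4 TPM against 43.4 TPM in replicate 2 (-1.08). The share of targets higher in replicate 1, 11.8%, was close to the 8.28% of the 14340 background genes. In the other direction the background share was 1.38%, and Nkx2-1 was the only such target. Foxf1 and Nkx2-9 averaged under 200 counts and so lie outside the background genes. The growth genes Mycn (46.9 and 69.0 TPM) and Ccnd2 (67.6 and 100.7 TPM) were lower in replicate 1, by just under 1.5-fold.

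The remaining targets lay closer together. The cell cycle genes Ccnd1 and Cdk6 had 50.2 and 43.5 TPM and 3.09 and 3.75 TPM. Of the ventral patterning factors, Olig2 had 14.3 and 16.3 TPM, Nkx2-2 5.91 and 5.34 TPM, and Nkx6-2 5.97 and 4.63 TPM. Rab34, a small GTPase needed for cilium formation, had 74.95 and 61.8 TPM, and the Wnt inhibitor Sfrp1 35.6 and 35.2 TPM. The survival gene Bcl2 had 4.39 and 3.90 TPM, and Foxf1, a factor of mesenchyme, 1.31 and 0.92 TPM. The values of Foxa2, also listed as a target, stand above, as do the counts of Nkx2-9, which was the target below 1 TPM.

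Transcripts of the members were estimated separately by the authors. The tables listed 34 transcripts of the 9 genes. Shh, Smo and Gli1 had 1 each. In Gli2, Gli2-201 took 92.6% and 98.2% of the gene's TPM, in Gli3, Gli3-201 took 91.3% and 92.0%, and in Sufu, Sufu-201 took 82.6% and 83.3%. In Boc the leading transcript, ENSMUST00000023370, which has no name in GENCODE M21, took 89.7% and 90.0%. The leading transcript was the same in both libraries in 8 of the 9 genes.

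Hhip was the exception. The coding Hhip-201 took 59.9% of its TPM in replicate 1 and 36.7% in replicate 2, and the shorter non-coding Hhip-202 took 40.1% and 63.3%. By counts Hhip-201 led in both, with 266 of 295 in replicate 1 and 134.9 of 173 in replicate 2. The level of Hhip-201 was 0.96 TPM in replicate 1 and 0.36 TPM in replicate 2, while Hhip-202 stood at 0.64 and 0.63 TPM, so that the difference of the gene between the replicates lay in Hhip-201. The deposited mm9 table of splice junctions had 119 reads over the 8 introns found in Hhip-201 alone and 2 reads over the 1 intron found in Hhip-202 alone.

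In Ptch1 the transcript estimates and the junction reads also differed. Ptch1-202, which starts at a first exon of 78 bases with no coding sequence, was given 79.3% of the gene's TPM in replicate 1 and 72.5% in replicate 2. Ptch1-201, which starts with 159 coding bases in its first exon, was given 14.8% and 16.6%, and Ptch1-204, which starts farther upstream, 2.23% and 3.02%. The junction table holds 146 reads that join a first exon to the shared second exon, in 2 fields that no source assigns to a replicate. Of these, 120 (82.2%, exact 95% interval 75 to 88%) crossed the 1546-base intron of Ptch1-201 and 23 (15.8%) the 9276-base intron of Ptch1-204. Only 3 (2.05%, 0.426 to 5.89%) crossed a 642-base intron, the length of the first intron of Ptch1-202. The 642-base intron is not among the introns annotated with the mm9 data, while the 1546-base and 9276-base introns are. Whether this lowered its read count was not tested. In field 1 the 3 counts were 48, 2 and 2, and in field 2 they were 72, 21 and 1, so that the first exon of Ptch1-201 led in each. Ptch1-202 also differs from Ptch1-201 by a 419-base intron near its end, which had 93 reads, against 740 over the next intron upstream. The builds were matched by intron length alone. The RefSeq upstream stretch printed for Ptch1 ends directly before the first base of Ptch1-201.

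**Figure D4:**
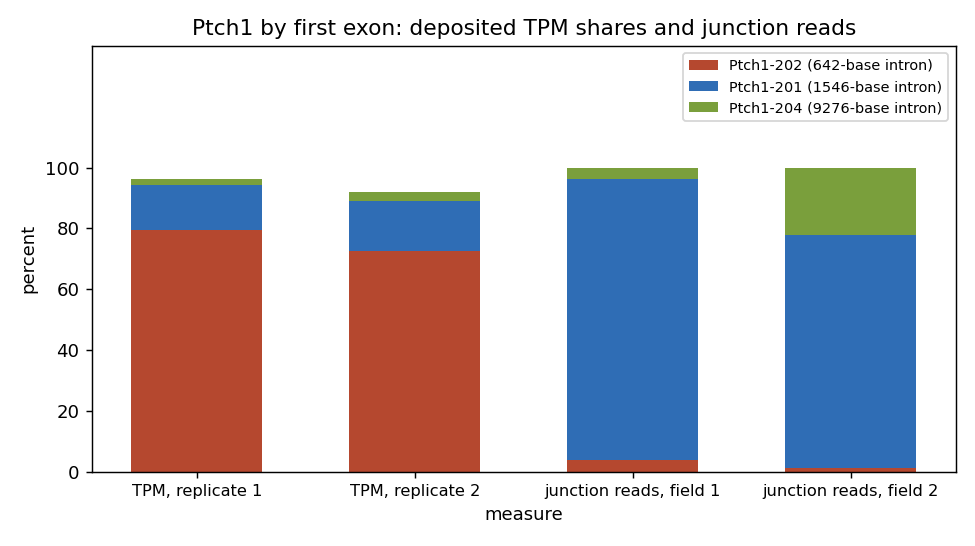
Share (percent) of the deposited Ptch1 TPM in transcripts with each of 3 first introns, in replicates 1 and 2, beside the share of 52 and 94 junction reads in fields 1 and 2 over introns of the same lengths; the fields are not assigned to the replicates. Ptch1-202 holds 79.3% and 72.5% of the TPM and 3.85% and 1.06% of the junction reads.

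The junction reads also showed exons of Sufu, Boc and Gli3 that begin at either of a pair of acceptors 3 bases apart, so that a single codon is kept or left out. In Sufu 252 of 407 reads (61.9%, 57 to 66.7%) used the downstream acceptor, which leaves out the CAG shown in capitals, and 155 kept it. Both forms are annotated, and the deposited TPM share of transcripts with the shorter exon was higher, at 87.4% in replicate 1 and 87.9% in replicate 2. In Boc 787 of 1162 reads (67.7%, 65 to 70.4%) left out the CAG at the start of the 80-base exon printed for Boc-201. The form without it is not in the Ensembl 65 exons of the mm9 table. In a second Boc exon 368 of 558 reads (65.9%, 61.9 to 69.9%) used the annotated downstream acceptor and 190 an unannotated one 3 bases upstream. In Gli3 145 of 156 reads (92.9%, 87.7 to 96.4%) used the annotated downstream acceptor. The shares in the separate fields differed by 1.66 to 3.97 percentage points.

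**Figure D5:**
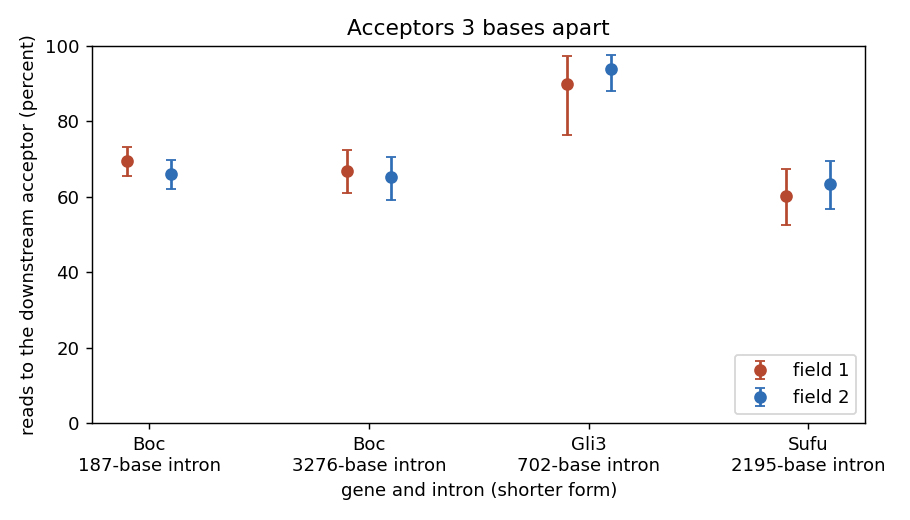
Share (percent) of junction reads that used the downstream of 2 acceptors 3 bases apart, for 4 introns named by the length of their shorter form, in field 1 and field 2 with exact 95% intervals for counting error. The intervals of both fields overlap in each intron, and the shares lie between 60.1% and 69.5% in Boc and Sufu and at 90.0% and 94.0% in Gli3.

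Of the 9 members, 6 had a promoter window in the RefSeq table, from 250 bases before to 50 after the start: Ptch1, Hhip, Smo, Gli2, Gli3 and Sufu. The 9-base consensus GACCACCCA, searched on both strands, was in none of the 6 and in 0.253% of 32851 windows of the same length. The closest stretch differed at 2 of 9 bases in Hhip, Smo and Gli2 and at 3 in Ptch1, Gli3 and Sufu, while 6.74% of all windows hold a match with at most 1 difference. The absence of a match says only that these letters are not in this window. The upstream stretches of Ptch1 and Hhip were rich in G and C, at 78.4% and 76.0% of bases, against a median of 52.4% over all windows. Those of Gli3 (72.8%), Smo (68.4%), Gli2 (67.2%) and Sufu (54%) also lay above the median, so this is not particular to Ptch1 and Hhip.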

How the data were processed

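For each library, the deposited mm10 tables list expected counts, TPM and FPKM by gene and by transcript, with the percent of a gene's TPM that falls to each transcript. The authors used GENCODE M4, per the text deposited with the tables; which aligner and quantifier they used is not given in the sources used here. The deposited mm9 tables give RPKM and junction read counts in 2 fields that no label assigns to a replicate. Symbols and positions come from GENCODE M21 on mm10 by stable identifier. Expected counts were rounded and scaled by TMM (edgeR 4.0.16, R 4.3.3) with a prior count of 1, and DESeq2 1.42.0 gave alternative size factors. The calculation of the ratios was checked on simulated counts with equal numbers of genes raised and lowered. That check does not cover libraries like these, where most genes 1.5-fold apart were higher in replicate 1. Exact 95% binomial intervals (scipy 1.17.1) cover only counting error: without molecular identifiers, reads need not come from separate molecules. Features named by number were left out. With 2 pools, the SD measures only the spread between these samples. The members, gene lists and rule for named genes (all members, all targets, the 3 highest and 3 lowest genes of each wider list and those 1.5-fold apart) were chosen with earlier results of these data known, and the comparisons of splice junctions after seeing them. Some listed genes are counted but not reported individually here. The alternatives were other scalings, prior counts, thresholds, filters and units, and each replicate alone.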

Additional observations from a re-analysis of the deposited data

Results flagged for a closer look

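Both results given here lie in the mm9 junction table outside the introns that the exon table lists, and no control sample exists for them. Inside the first long intron of Smo (17116 bases), reads joined both neighbouring exons to an unlisted 113-base exon on chromosome 6 (29702542 to 29702654, mm9): 61 reads entered it, 96 left it and 812 skipped it, which gives an inclusion of 8.82% (5.90% in field 1 and 11.2% in field 2). In the same intron, 193 unlisted junctions with at least 10 reads each lay within 1411 bases (29697680 to 29699090), with 4928 reads in all, 3053 in field 1 and 1875 in field 2, against 9396 reads over the 11 listed introns of Smo. Neither of the file's own flags, which no source defines, is set for these junctions. Outside Smo, junctions of that kind were found only in Gli3 among the other 8 genes (1, with 14 reads).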

How the results depend on the processing

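The number of members at least 1.5-fold apart stayed at 2 under DESeq2 size factors, total counts, upper quartile and spike-in scaling, at 2-fold in TMM-scaled counts, and with TPM and a pseudocount of 0.1, the last chosen after seeing the data. Over all scalings, prior counts and pseudocounts the log2 ratio of Gli1 lay between 1.08 and 1.32 and that of Hhip between 0.39 and 1.20; Hhip stood at 0.64 with TPM and a pseudocount of 0.1, below 2-fold, and at 0.39 with TPM and a pseudocount of 1, below 1.5-fold. The share of all genes at least 1.5-fold apart depended on the filter, at 9.67% with a mean count of at least 200, 17.2% with at least 10 and 30.3% with none. Of 36 pairs of members, 34 kept their order in replicate 2 alone, 36 in replicate 1 alone, 34 in mm9 RPKM and 31 in TMM-scaled CPM, which ignores length. On the log2 scale Ptch1 over Smo changed sign, from -0.58 in TPM to 0.30 in CPM and 0.24 in mm9 RPKM, and so did Boc over Ptch1, from 0.17 to -0.47 and -0.72. Of 43 pathway genes, 43 reached 0.5 TPM, 35 reached 5 TPM, and 39 to 43 reached 1 TPM in a single library. The leading transcript of Hhip differed in replicate 2 alone, so that 8 to 9 of 9 genes kept theirs. No paired analysis was possible because the samples form a single group. With 173 to 295 counts, Hhip and its transcripts are the least precise of these values. The median log2 ratio of each of the 13 marker lists kept its direction under the 4 other scalings. For the notochord list this carries no information, because its median includes Noto, with 0 counts in both libraries. The log2 ratio of T, its other gene, was 0.13, smaller than the shift of -0.21 under spike-in scaling.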
